A study of Mus musculus with 12 samples.

Results

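The clustered histone genes are the mouse genes of the replication-dependent histone clusters, taken here as every gene whose GENCODE M21 symbol is Hist1h, Hist2h, Hist3h or Hist4h followed by its histone type. The rule finds 70 genes in that annotation, of which 65 have a row in the deposited tables of 25097 genes. A single member with a row, Hist1h2al, is annotated as a processed pseudogene (chr13:51202727-51203065, minus strand, mm10) and lies outside the cluster that holds the other members of chromosome 13. They are described in G1E-ER-GATA-1 cells, mouse erythroid precursors that lack endogenous GATA-1 and carry a fusion of GATA-1 with an estrogen receptor domain. Estradiol switches this fusion protein on, and the cells then mature towards red cells. The series has 4 groups of 3 RNA sequencing libraries. Double mutant cells, described in the study as altered at cis-elements of Alas2, were treated with 1 µM beta-estradiol together with 1 mM 5-aminolevulinic acid (5-ALA) for 48 h, or with 1 µM beta-estradiol alone for 48 h. WT cells were treated with 1 µM beta-estradiol for 48 h, or left untreated. The product of Alas2 synthesises 5-ALA for heme in erythroid cells, so added 5-ALA enters the pathway after that enzyme. All groups carry the GATA-1 fusion. There are no untreated mutant libraries, and the labels do not say how many mutant lines or clones were used, so that the mutation and a difference between cell lines cannot be told apart. The labels do not say that the 3 libraries of a group came from separate cultures, so p-values measure only the spread between these libraries, which may be technical.

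Each nucleosome wraps DNA around core histones of the types H2A, H2B, H3 and H4, and the linker histone H1 binds where the DNA enters and leaves. Cells make most of this protein in S phase from the clustered genes. Their mRNAs are unusual in ending in a stem-loop in place of a poly(A) tail: stem-loop binding protein (SLBP) holds the stem-loop, the U7 small nuclear RNP helps to place the cut just after it, and the mRNA decays at the end of S phase. In differentiating cells some of these genes are also known to give transcripts that run on past the stem-loop to a polyadenylation site. Erythroid maturation is known for chromatin condensation and a final exit from the cell cycle.

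The stem-loops are shown because they set the clustered genes apart and because the place of the stem-loop in the transcript model differs between the members that follow. The pattern is the 16-base consensus of the stem and loop with all 6 stem positions paired, and it was searched on the sense strand of the GENCODE M21 transcripts. It was found in 44 of the 65 members and in 89 of 81613 listed transcripts, or 0.109%. A stem-loop past the end of a model, or with an unpaired stem position, was not found by this search. Models without one include short ones, such as Hist1h2bl at 381 bases and Hist1h3h at 411 bases. Capitals mark the 16 bases of the stem-loop, read 5′ to 3′ on the gene's strand with 4 bases before it and 10 after it, all after the stop codon in the 3′ UTR. Positions are those of the capitals in mm10.
Hist1h1c, chr13:23739512-23739527, plus strand: aaaaGGCTCTTTTCAGAGCCaccactccca
Hist3h2a, chr11:58955172-58955187, plus strand: caaaGGCTCTTTTCAGAGCCacccacaacc
Hist2h3c1, chr3:96247327-96247342, plus strand: caaaGGCTCTTTTCAGAGCCaccacagctt
Hist1h2bg, chr13:23571843-23571858, plus strand: caaaGGCTCTTTTCAGAGCCacccatactg
Hist1h2bj, chr13:22043638-22043653, plus strand: caaaGGCTCTTTTCAGAGCCacgcacaatt
Hist1h4i, chr13:22040966-22040981, minus strand: taaaGGCCCTTTTTAGGGCCaccacaaaat
Hist2h4, chr3:96262939-96262954, minus strand: taacGGCCCTTTTTAGGGCCaaccacagtc
Hist1h4n, chr13:21831798-21831813, minus strand: taaaGGCCCTTTTCAGGGCCatccaattaa
Hist1h4b, chr13:23757366-23757381, plus strand: aaaaGGTCCTTTTCAGGACCactcactgaa
The commonest form, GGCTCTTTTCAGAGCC, stands in 24 members, of which 3 are H1, 10 H2A, 6 H2B and 5 H3 genes. The form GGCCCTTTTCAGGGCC stands in 7 members, all of them H4 genes. What follows the stem-loop differs between the GENCODE models: that of Hist1h2bj ends 23 bases after it, that of Hist1h4b 28 bases and that of Hist1h4n 31 bases. The Hist1h2bg model ends 155 bases after it, but it is 618 bases long in GENCODE against 477 bases in the authors' tables. Where the model behind the Hist1h2bg counts ends is therefore not known. The models of Hist1h4i, Hist1h1c, Hist2h3c1, Hist2h4 and Hist3h2a run on for 330, 840, 1162, 1257 and 1643 bases, in that order.

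Promoters are shown for 3 members that behave differently below: Hist1h1c, Hist1h2bj and Hist1h2bg. They are the 250 bases before the gene start in RefSeq (GRCm38.p6), where 59 members were matched. Capitals mark, on either strand, 5 kinds of word. CCAAT is the CCAAT box. ATTTGCAT is the octamer that Oct factors bind, known from H2B promoters. TATAAA is the TATA box. The word AAACACA is known from H1 promoters. GATA words are the 4 words made of GATA with A or T before it and A or G after it. Words that meet may share end bases.
Hist1h1c, chr13:23738557-23738806, plus strand: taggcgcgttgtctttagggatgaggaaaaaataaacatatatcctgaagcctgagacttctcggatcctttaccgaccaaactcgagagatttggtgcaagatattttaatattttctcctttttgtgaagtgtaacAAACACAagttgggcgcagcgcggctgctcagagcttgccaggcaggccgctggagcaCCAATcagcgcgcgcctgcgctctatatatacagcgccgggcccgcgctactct
Hist1h2bj, chr13:22042948-22043197, plus strand: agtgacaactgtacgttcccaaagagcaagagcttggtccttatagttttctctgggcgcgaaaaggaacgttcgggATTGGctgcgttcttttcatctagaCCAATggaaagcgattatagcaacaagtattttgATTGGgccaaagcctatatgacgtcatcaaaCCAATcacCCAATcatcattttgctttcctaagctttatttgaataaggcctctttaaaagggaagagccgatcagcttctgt
Hist1h2bg, chr13:23571150-23571399, plus strand: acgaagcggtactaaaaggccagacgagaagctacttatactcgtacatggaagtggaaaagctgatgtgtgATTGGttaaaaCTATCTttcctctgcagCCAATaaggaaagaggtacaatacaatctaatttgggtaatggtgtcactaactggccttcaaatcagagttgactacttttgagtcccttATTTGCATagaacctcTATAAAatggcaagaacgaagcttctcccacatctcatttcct
Over the 60 member promoters, CCAAT was present in 81.67%, against 33.85% of all 32851 promoters. It stood in 6 of 6 H1, 18 of 18 H2A and 14 of 14 H2B promoters, in 8 of 10 H3 and in 3 of 12 H4 promoters. ATTTGCAT stood in 12 of the 60 member promoters, 7 of them H2A and 5 H2B, against 1.6% of all promoters. TATAAA was present in 48.33% against 12.37%, and AAACACA in 13.33% against 6.25%, with 5 of 6 H1 promoters holding it. A GATA word stood in 26.67% of member promoters and in 26.54% of all promoters. The Hist1h1c window holds the H1 word and a CCAAT box. The Hist1h2bj window has several CCAAT boxes and no TATA box. The Hist1h2bg window has CCAAT boxes, the octamer, a TATA box and a GATA word on the minus strand. These are matches of letters, and nothing about binding is drawn from them.

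Of the 65 members, 63 had an expected count above 0 in some library, and Hist1h2aa and Hist1h2an were listed at 0 in all 12. Far fewer had enough reads to compare: 32 members reached 100 counts over the 12 libraries together and 11 reached 1000. Counts were present in all 12 libraries for 27 members. By type, all 6 H1 genes, 17 of 19 H2A, 15 of 15 H2B, 12 of 12 H3 and 13 of 13 H4 genes had counts. At least 100 counts were reached by 4 H1, 7 H2A, 12 H2B, 3 H3 and 6 H4 genes. The members held 241336 counts in all, and 81.63% of them belonged to Hist1h1c, which encodes a linker histone. Within the H1 type Hist1h1c held 99.49% of the counts. By counts, the leading H2A and H2B members were Hist3h2a with 43.52% and Hist1h2bc with 54.99% of their type. The leading H3 and H4 members were Hist2h3c1 with 33.27% and Hist1h4i with 55.74%. These shares do not correct for transcript length. In TPM, which does, Hist2h2aa2 averaged 35.3 over all 12 libraries against 11.8 for Hist3h2a. Hist1h3d averaged 5.14 TPM against 1.485 for Hist2h3c1, while Hist1h2bc and Hist1h4i led their types by TPM too. The genes lie on chromosomes 13 (53 members in the tables), 3 (9), 11 (2) and 6 (1). Not analysed here were Hist1h2aj, Hist1h2bh, Hist1h2bm, Hist2h2bb and Hist3h2bb-ps, which are annotated but have no row. The labels name a TruSeq RNA kit, and whether poly(A) RNA was selected is not given in the sources used here.

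The libraries held 20309085 to 43548387 counts. The members' share of them was 0.0845 to 0.0922% in mutant cells with estradiol and 5-ALA, 0.0963 to 0.108% in mutant cells with estradiol, 0.0615 to 0.0624% in WT cells with estradiol, and 0.00414 to 0.00492% in untreated WT cells. A filter on low counts left 12115 genes for testing, among them 38 members: 5 H1, 7 H2A, 13 H2B, 5 H3 and 8 H4 genes. The 27 members not tested were the 2 at 0 and 25 with 3.01 to 70.03 counts over all 12 libraries. Levels below are CPM, counts scaled to the TMM-adjusted library size, and TPM, which also divides by transcript length. TPM is used where levels of different genes are set against each other, while shares and rankings by counts do not correct for length. A gene is called at an adjusted p below 0.05 in the edgeR quasi-likelihood F test, adjusted by the Benjamini-Hochberg method over all 12115 genes. Erythroid markers (12 genes) summed to 68930 to 74240 CPM in mutant cells with 5-ALA, 25450 to 26950 CPM in mutant cells, 81660 to 82470 CPM in WT cells with estradiol and 1396 to 1434 CPM in untreated WT cells. The list includes the globin genes Hbb-bs, Hbb-bt, Hba-a1 and Hba-a2, and Alas2, the gene altered in the mutant. A sum gives most weight to the most abundant genes, and it does not show that all 12 moved together. In bulk samples, fewer cells of a type and less RNA per cell cannot be told apart.

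**Figure D1:**
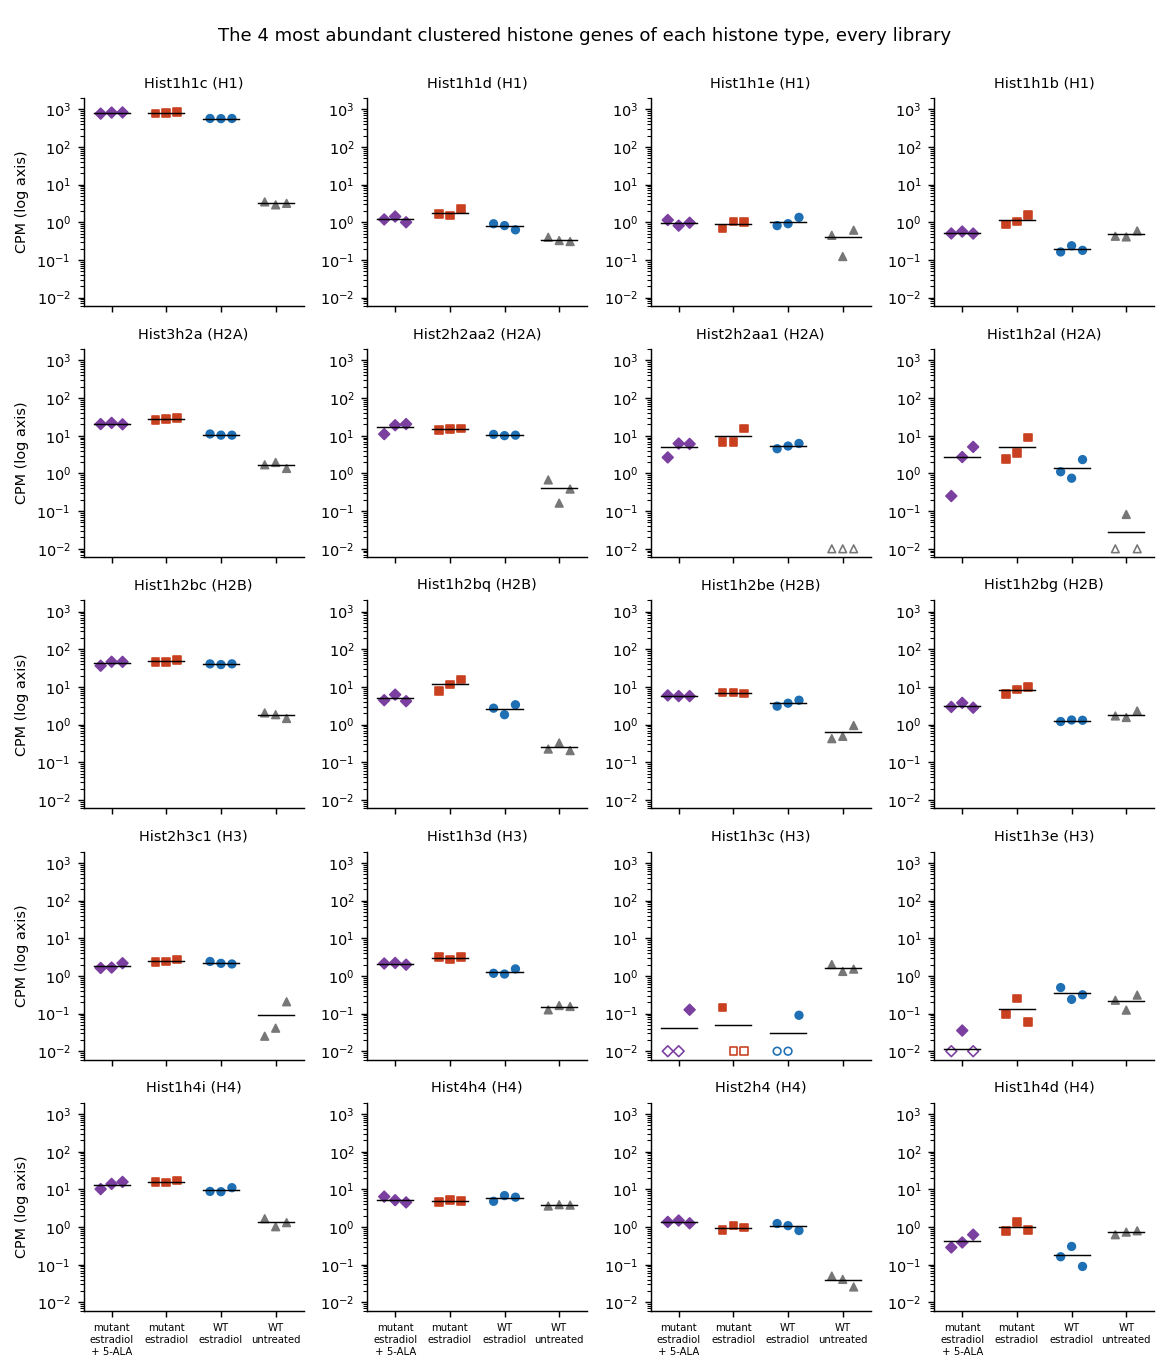
CPM (log axis) in every library of the 4 members of each histone type with the highest mean count, with a line at each group's mean and open markers at the base for 0. Hist1h1c lies at 564 to 862 CPM in the 9 libraries with estradiol and at 2.90 to 3.47 CPM in the 3 untreated WT libraries, and the panels of Hist1h1b, Hist1h2bg, Hist1h3c and Hist1h4d do not share that order of groups.

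WT cells with 48 h of estradiol, which switches the GATA-1 fusion on, are set against untreated WT cells. No time or vehicle is listed for the untreated cells. GATA-1 activity, estradiol itself and time in culture therefore cannot be told apart. Hist1h1c was far higher with estradiol, and Hist2h2aa2, Hist3h2a, Hist1h2bc, Hist2h3c1, Hist1h4i and Hist2h4 were higher too. They are among the 4 members of their types with the most counts. That ranking runs over all libraries, most of them with estradiol, and so favours genes high with estradiol. A second set was lower with estradiol, among them Hist1h2bj, Hist1h3c, Hist1h3g, Hist1h4b, Hist1h4n and Hist1h1a. Of the 38 members tested, 16 were called higher and 11 lower, and 11 were not called. A member low in either group could pass the filter on low counts through the libraries where it is high, which favours a call. Over all genes tested, 43.3% were called higher and 46.4% lower (89.7% in either direction), against 42.1% and 28.9% of the members. The groups did not overlap for 26 of the 38 members, and for 90.2% of all genes tested. The median log2 fold change was 0.96 over the members and -0.03 over all genes tested.

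Among the linker histone genes, Hist1h1c (chr13:23738808-23740367, plus strand, mm10) had 570, 564 and 570 CPM in WT cells with estradiol, against 3.47, 2.90 and 3.18 CPM in untreated WT cells. Every estradiol library was far above every untreated one. The log2 fold change was 7.46 ± 0.06 (SE), or 176-fold (edgeR quasi-likelihood test, Benjamini-Hochberg adjusted p = 3.6e-26). On the per-length scale its level was 565.6 ± 2.13 TPM with estradiol and 3.88 ± 0.31 TPM without (SD, n = 3 each). Its share of all counts from the clustered genes was 83.1 to 83.9% with estradiol and 8.13 to 8.42% in untreated cells.
The other H1 genes were at low levels and went in both directions. Hist1h1d had 0.914, 0.817 and 0.630 CPM with estradiol, against 0.400, 0.327 and 0.308 CPM in untreated cells, and Hist1h1e had 0.816, 0.919 and 1.35 CPM against 0.450, 0.123 and 0.616 CPM. Neither pair of groups overlapped, and both genes were called higher, by a log2 fold change of 1.19 ± 0.30 for Hist1h1d and 1.23 ± 0.33 for Hist1h1e (SE). Exons of Hist1h1e overlap those of Hist1h2be, so reads may be shared. Hist1h1b had 0.163, 0.238 and 0.180 CPM with estradiol, against 0.425, 0.408 and 0.590 CPM in untreated cells, and it fell by 1.29 ± 0.39 on the log2 scale (SE). Hist1h1a fell by 1.83 ± 0.50 (SE), and it passed the filter on low counts through the untreated group.

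Of 7 H2A members tested, 4 were called higher and none lower, and 1 of the 4 is the pseudogene Hist1h2al. Over all genes tested, 43.3% were called higher and 46.4% lower. Hist3h2a (chr11:58954685-58956830, plus strand) had 11.2, 10.4 and 10.4 CPM in WT cells with estradiol, against 1.70, 1.96 and 1.36 CPM in untreated WT cells. The groups lay well apart, with a log2 fold change of 2.70 ± 0.10 (SE; edgeR quasi-likelihood test, adjusted p = 9.41e-21). Its exons overlap those of Trim17. Hist2h2aa2 had 10.9, 10.1 and 10.4 CPM with estradiol, against 0.675, 0.163 and 0.385 CPM without, a log2 fold change of 4.55 ± 0.40 (SE; edgeR quasi-likelihood test, adjusted p = 3.39e-06). Hist2h2aa1 had 4.54, 5.35 and 6.26 CPM with estradiol and was listed at 0 in all 3 untreated libraries (edgeR quasi-likelihood test, adjusted p = 1.1e-03). It passed the filter on low counts through the groups with estradiol. Untreated reads given to Hist2h2aa2 could belong to Hist2h2aa1, so no fold is given for it. These neighbouring genes (chr3:96239749-96240276, minus strand, and chr3:96245497-96246082, plus strand) are near-identical. No 50-base stretch of Hist2h2aa2 and 10.8% of those of Hist2h2aa1 are found in no other gene, so the division of reads between them is uncertain. Their sum was 15.4, 15.4 and 16.7 CPM with estradiol and 0.675, 0.163 and 0.385 CPM without.
Hist1h2al had 1.11, 0.749 and 2.34 CPM with estradiol and 0, 0.0817 and 0 CPM without. It passed the test at an adjusted p of 0.0374 (edgeR quasi-likelihood test), with 2 counts in the untreated group, and the ratio of summed counts had a 95% counting interval of 18.4 to 568. The call was lost (adjusted p 0.0606 to 0.0973) without WT estradiol replicate 1 or 3, or without any 1 of the untreated replicates 1, 2 and 3, and with no filter on low counts (adjusted p = 0.0605), all in the edgeR quasi-likelihood test.

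Of 13 H2B genes tested, 4 were called higher and 3 lower, against 43.3% and 46.4% of all genes tested. Hist1h2bc (chr13:23684199-23692908, plus strand), the clustered core histone gene with the highest TPM in estradiol-treated WT cells, had 41.1, 39.4 and 41.2 CPM in WT cells with estradiol, against 2.05, 1.84 and 1.46 CPM in untreated WT cells. The groups did not overlap, with a log2 fold change of 4.51 ± 0.15 (SE; edgeR quasi-likelihood test, adjusted p = 7.99e-11). Hist1h2be had 3.10, 3.71 and 4.46 CPM against 0.425, 0.490 and 0.95 CPM, a log2 fold change of 2.54 ± 0.19 (SE). Hist1h2bb rose by 1.62 ± 0.43 on the log2 scale (SE).
Hist1h2bq had 2.74, 1.84 and 3.38 CPM with estradiol and 0.225, 0.327 and 0.205 CPM without, a log2 fold change of 3.41 ± 0.60 (SE). It shares nearly all of its sequence with Hist1h2br, which had 1.37, 2.72 and 0.675 CPM against 0.725, 0.776 and 0.770 CPM and was not called. Only 2.68% of the 50-base stretches of Hist1h2bq are found in no other gene. The pair summed to 4.11, 4.56 and 4.05 CPM with estradiol and 0.95, 1.1 and 0.975 CPM without.
Hist1h2bj (chr13:22043214-22043676, plus strand) ran the other way. It had 0.587, 0.885 and 0 CPM in WT cells with estradiol, against 5.25, 4.61 and 4.83 CPM in untreated WT cells. Every estradiol library was below every untreated one, and the log2 fold change was -3.21 ± 0.39 (SE; edgeR quasi-likelihood test, adjusted p = 6.27e-06). Per length it stood at 1.78 ± 1.64 TPM with estradiol and 21.7 ± 1.30 TPM in untreated cells (SD, n = 3 each). In untreated cells Hist1h1c had 3.88 TPM and Hist1h2bc 4.76 ± 0.83 TPM (SD), both below Hist1h2bj, the member with the highest TPM there. With 40.58% of its 50-base stretches found in no other gene, part of its reads could belong to other H2B genes. Hist1h2bg had 1.21, 1.33 and 1.31 CPM with estradiol and 1.70, 1.55 and 2.31 CPM without, a fall of 0.56 ± 0.21 on the log2 scale (SE; edgeR quasi-likelihood test, adjusted p = 0.0151). That call was lost without untreated replicate 3 (adjusted p = 0.134) or without WT estradiol replicate 1 (adjusted p = 0.0723), again in the edgeR quasi-likelihood test. Hist2h2be had 2.06, 2.18 and 1.53 CPM with estradiol and 1.62, 2.04 and 1.95 CPM without, with overlapping groups.

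Of 12 H3 genes 5 were tested, of which 2 were called higher and 3 lower. Over all genes tested, 89.7% were called in either direction. The 3 lower genes, at or near 0 with estradiol, passed the filter on low counts through the untreated group. The 2 higher genes, low in untreated cells, passed it through the groups with estradiol. Both favour a call, so these counts describe only the genes tested. Hist2h3c1 (chr3:96246685-96248509, plus strand) had 2.41, 2.15 and 2.07 CPM in WT cells with estradiol, against 0.025, 0.0408 and 0.205 CPM in untreated WT cells, a log2 fold change of 4.47 ± 0.34 (SE; edgeR quasi-likelihood test, adjusted p = 2.64e-13). Hist1h3d had 1.17, 1.12 and 1.53 CPM against 0.125, 0.163 and 0.154 CPM, a log2 fold change of 3.08 ± 0.29 (SE). Neither gene's groups overlapped.
Hist1h3c had 0, 0 and 0.090 CPM with estradiol, against 2.00, 1.31 and 1.51 CPM in untreated cells. With 2 counts against 171, the ratio of summed counts had a 95% counting interval of 0.00177 to 0.054 (edgeR quasi-likelihood test, adjusted p = 5.36e-07). Hist1h3g was at 0 in all 3 estradiol libraries and had 0.350, 0.653 and 0.539 CPM in untreated cells, so that it was at least 13.51-fold lower (estradiol group set to 3 counts over its libraries). Hist1h3h had 3 counts with estradiol against 52 without, and the ratio had a 95% counting interval of 0.0145 to 0.224. Of the 50-base stretches of Hist1h3h 6.08% are found in no other gene, against 53.01% for Hist1h3c and 45.95% for Hist1h3g, so the reads of Hist1h3h are the least certain of these 3. Hist1h3e, not tested for its low counts, had 0.489, 0.238 and 0.315 CPM with estradiol and 0.225, 0.123 and 0.308 CPM without, with overlapping groups.

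Of 8 H4 genes tested, 3 were called higher and 3 lower, against 43.3% and 46.4% of all genes tested. Hist1h4i (chr13:22040636-22041362, minus strand) had 8.84, 8.68 and 11.1 CPM in WT cells with estradiol, against 1.67, 1.02 and 1.31 CPM in untreated WT cells, a log2 fold change of 2.78 ± 0.23 (SE; edgeR quasi-likelihood test, adjusted p = 5.88e-07). Hist2h4 had 1.24, 1.09 and 0.810 CPM against 0.050, 0.0408 and 0.0257 CPM, a log2 fold change of 4.64 ± 0.42 (SE; edgeR quasi-likelihood test, adjusted p = 1.88e-11). It passed the filter on low counts through the groups with estradiol. Hist4h4 (chr6:136801553-136804415, minus strand), the one member on chromosome 6, had 4.83, 6.85 and 6.21 CPM against 3.62, 3.92 and 3.82 CPM. Its groups did not overlap either, but the difference was small, at a log2 fold change of 0.65 ± 0.13 (SE), and limma's test on log2(TPM + 0.1) did not call it (adjusted p = 0.052).
Lower with estradiol were Hist1h4d, with 0.163, 0.306 and 0.090 CPM against 0.625, 0.735 and 0.796 CPM in untreated cells, and Hist1h4b and Hist1h4n. Hist1h4b fell by 3.43 ± 0.72 on the log2 scale, and Hist1h4n fell by 2.38 ± 0.74 (SE), both at under 1 CPM in untreated cells. Both passed the filter on low counts through the untreated group. Of the 50-base stretches 14.44% for Hist1h4n and 45.4% for Hist1h4b are found in no other gene. The DESeq2 Wald test did not call Hist1h4b (adjusted p = 0.0585) or Hist1h3h (adjusted p = 0.193).

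**Figure D2:**
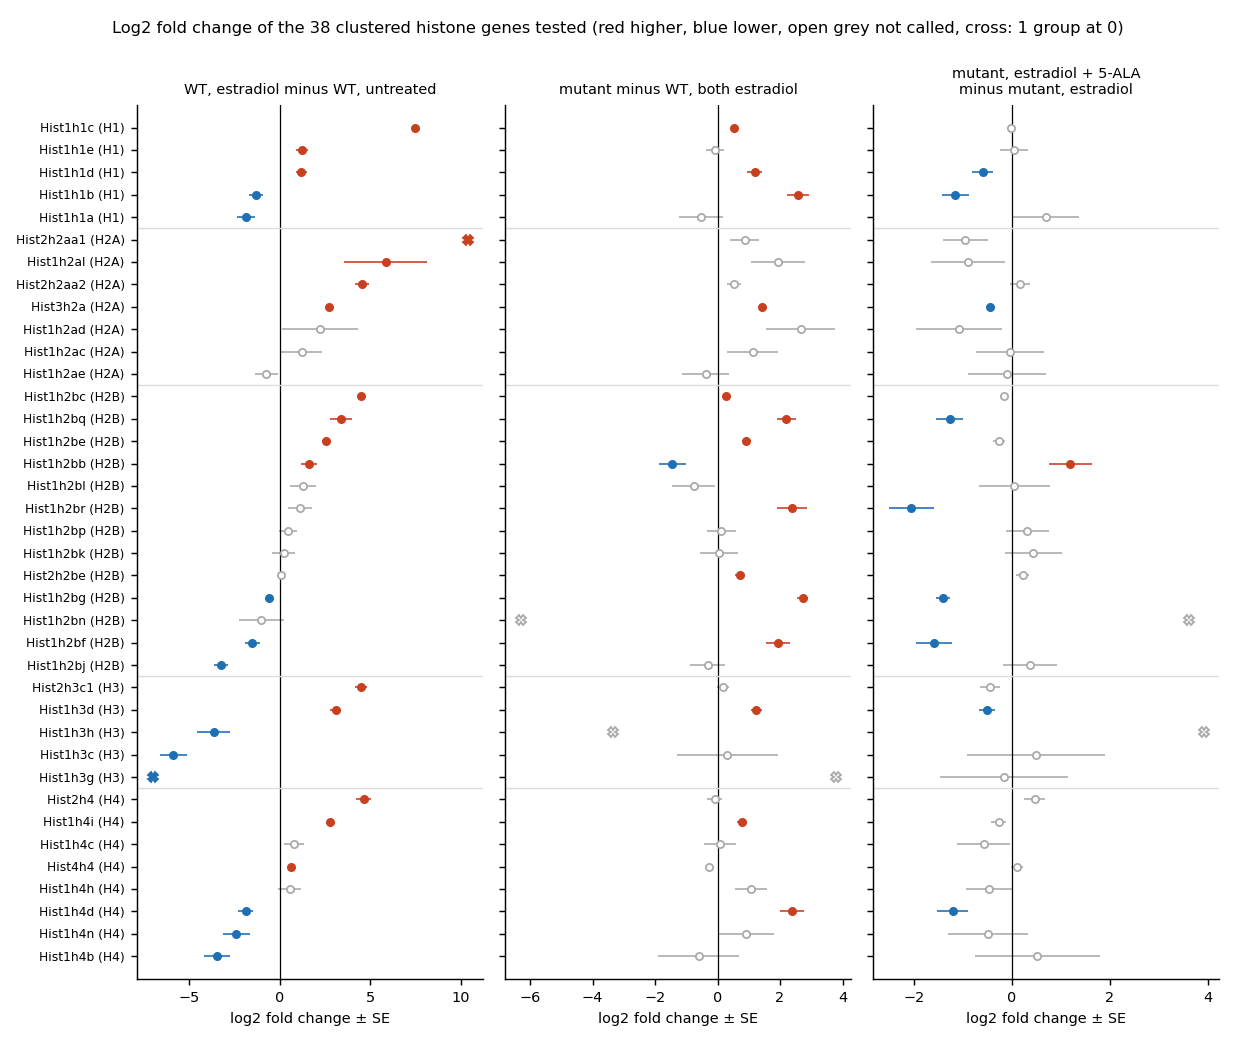
Log2 fold change ± SE of the 38 members tested, by histone type and ordered by the estradiol effect in WT cells, for WT cells with estradiol minus untreated WT cells, mutant minus WT cells with estradiol, and mutant cells with 5-ALA minus without. Crosses are members at 0 in all libraries of 1 group, whose fitted position is no bound. The first panel spreads to both sides (16 higher, 11 lower), the second lies mainly to the right (14 higher, 1 lower) and the third mainly to the left (1 higher, 9 lower), and called members kept these directions when TPM replaced CPM.

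The summed level of each type describes the same libraries without a test. H1 summed to 570.2 ± 3.43 CPM in WT cells with estradiol and 4.84 ± 0.60 CPM in untreated WT cells (SD, n = 3 each). Without Hist1h1c the H1 sum was 2.15 ± 0.21 CPM with estradiol and 1.66 ± 0.44 CPM without. H2A summed to 29.1 ± 1.44 CPM with estradiol and 4.69 ± 1.81 CPM without, and H2B to 58.7 ± 1.13 and 16.8 ± 1.19 CPM. H4 summed to 17.6 ± 1.41 CPM with estradiol and 8.02 ± 0.21 CPM without. The H3 sum was 4.24 ± 0.31 CPM with estradiol and 4.19 ± 0.70 CPM without, but 7.32 ± 0.71 TPM with estradiol and 17.4 ± 2.64 TPM without. The other sums were higher with estradiol on the TPM scale too, by other factors: H1 stood at 570.3 TPM with estradiol and 8.43 TPM without, H2A at 66.3 and 15.0 TPM, H2B at 127.1 and 60.2 TPM, and H4 at 29.6 and 20.6 TPM. The authors' length is 1820 bases for Hist2h3c1 and 489 bases for Hist1h3c.

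**Figure D3:**
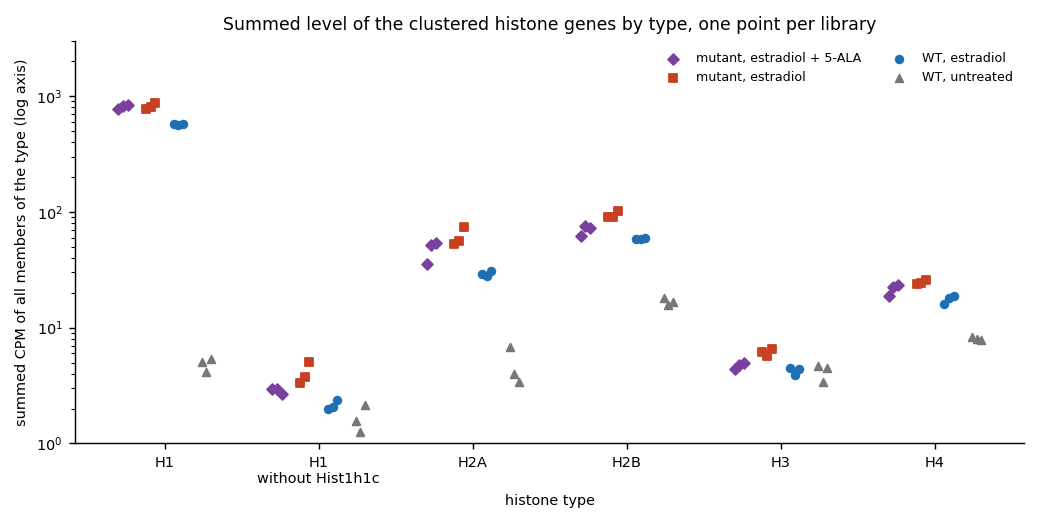
Summed CPM of all members of each histone type (log axis), 1 point per library, with H1 also shown without Hist1h1c. The H1 sum with Hist1h1c stands at 806.1 CPM (mutant cells with 5-ALA), 814.9 CPM (mutant cells), 570.2 CPM (WT cells with estradiol) and 4.84 CPM (untreated WT cells), and the H3 sums of the WT groups overlap in CPM, while in TPM the estradiol group is lower.

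The direction in WT cells was then set beside the transcript models, using the 42 members with 1 transcript of equal length in the authors' tables and in GENCODE M21. In 10 of these the model runs over 100 bases past the stem-loop, and 8 of the 10 have AATAAA or ATTAAA, the polyadenylation signal, in their last 50 bases. Over all listed transcripts 41.7% have such a signal there. Of these 10 members 5 were tested, and all 5 were called higher with estradiol: Hist1h1c, Hist3h2a, Hist2h3c1, Hist1h4i and Hist2h4. The other 5, Hist1h3e, Hist1h4a, Hist1h4j, Hist2h3c2 and Hist3h2ba, were not tested. In 16 members the model ends within 60 bases of the stem-loop, and none of the 16 has the signal. Of these 7 were tested: Hist2h2aa1 and Hist2h2aa2 were called higher, Hist1h2bf, Hist1h2bj, Hist1h4b and Hist1h4n lower, and Hist1h2bk was not called. In the other 16 members no stem-loop lies in the model, and of the 5 tested none was higher and Hist1h1b and Hist1h3h were lower. The grouping was made with these values known, a member could pass the filter through the group where it is high, and longer models collect more reads. The counts are therefore a description, and no test was made. These gene-level values do not show which 3′ end the transcripts had.

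**Figure D4:**
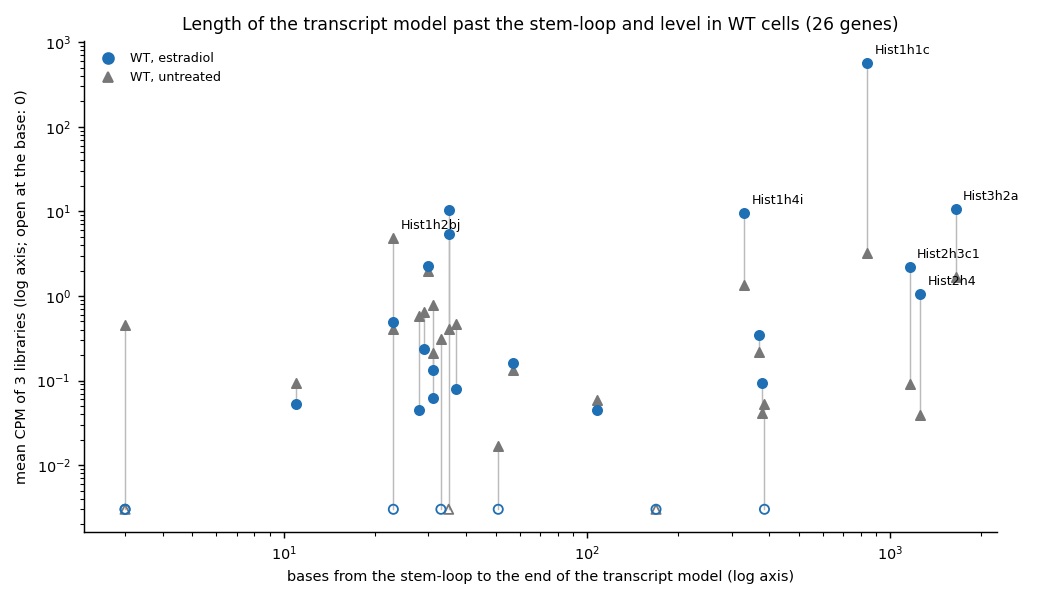
Mean CPM (log axis) of 26 members with a stem-loop in a model of matching length, in WT cells with estradiol (circles) and untreated WT cells (triangles), against the bases from the stem-loop to the end of the model (log axis), with open markers at the base for 0. The 5 labelled members with models running 330 to 1643 bases past the stem-loop have the circle above the triangle, while Hist1h2bj, whose model ends 23 bases past it, has the triangle above the circle. Other members differ from this: Hist2h2aa1 and Hist2h2aa2, whose models end 35 bases past it, have the circle above the triangle. Hist1h4j (385 bases) and Hist1h4a (108 bases), both at very low counts, have the triangle above the circle.

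Genes that work with the clustered genes were read from chosen lists in the same comparison, in which 43.3% of all genes tested were called higher and 46.4% lower. All 22 S phase genes tested were lower in WT cells with estradiol, with a median log2 fold change of -4.12. Rrm2, a subunit of the enzyme that makes deoxyribonucleotides, had 12.3 ± 0.73 CPM with estradiol and 431.2 ± 8.42 CPM without (SD, n = 3 each), and Cdt1, a replication licensing factor, had 3.63 ± 0.41 and 143.5 ± 4.17 CPM. Of 10 genes for histone gene transcription 3 were higher and 7 lower, and Hinfp and Pou2f1, both among the 3, turned direction on the TPM scale. Ccna2, the S phase cyclin A, fell by 4.05 ± 0.04 on the log2 scale, and Yy1 rose by 1.28 ± 0.03 (SE). Of 14 genes for the 3′ end and decay of histone mRNA 4 were higher and 9 lower, and Eri1 and Upf1 turned direction on the TPM scale. Among the 9, Slbp had 78.9 ± 1.25 CPM with estradiol and 149.8 ± 2.25 CPM without (SD), and Lsm11, a U7 protein, had 3.61 ± 0.19 and 18.5 ± 1.15 CPM. Of 20 histone chaperones 2 were higher and 18 lower. Chaf1a, which deposits histones behind the replication fork, was at 4.53 ± 0.42 CPM with estradiol and 118.0 ± 0.74 CPM without.
Of 8 histone genes tested outside the clusters 2 were higher and 5 lower with estradiol. H3f3a, one of the genes for the replication-independent H3.3, had 805.1 ± 5.66 CPM with estradiol and 550.4 ± 20.7 CPM without, a log2 fold change of 0.55 ± 0.03. H2afz, for the variant H2A.Z, had 832.7 ± 10.2 and 1092 ± 16.5 CPM, and H2afy, for macroH2A, had 17.7 ± 0.44 and 184.4 ± 4.90 CPM. H1f0 and H1fx, linker histone genes outside the clusters, are listed at 0 in all 12 libraries, and whether their reads were assigned to other rows is not known.

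The comparison of mutant with WT cells, both with estradiol, asks how these genes differ after the same 48 h. Heme levels are not among the values used here. The clustered genes that differed were mostly higher in the mutant: Hist1h2bg, Hist1h2br and Hist1h2bq of the H2B type stood out, Hist1h1b, Hist1h4d and Hist3h2a were higher as well, and Hist1h1c was 1.43-fold higher. Of the 38 members 14 were called higher and 1 lower, and 23 were not called. Over all genes tested 35.1% were called higher and 33.6% lower (68.8% in either direction), against 36.8% and 2.63% of the members, so that the share higher was near the background. Of all calls 51.1% were higher here, and 70.7% on the log2(TPM + 1) scale. The groups did not overlap for 21 of the 38 members, and for 71.7% of all genes tested. The median log2 fold change was 0.62 over the members and -0.01 over all genes tested. The erythroid marker sums given above were lower in the mutant, and their part in these differences was not tested.

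Linker histones came first in abundance. Hist1h1c had 775, 796 and 862 CPM in mutant cells, against 570, 564 and 570 CPM in WT cells, with no overlap and a log2 fold change of 0.51 ± 0.03 (SE; edgeR quasi-likelihood test, adjusted p = 1.71e-10). Hist1h1b had 0.875, 1.04 and 1.55 CPM in mutant cells and 0.163, 0.238 and 0.180 CPM in WT cells, a log2 fold change of 2.57 ± 0.34 (SE). Hist1h1d had 1.65, 1.52 and 2.28 CPM against 0.914, 0.817 and 0.630 CPM, also without overlap. Hist1h1e overlapped between the groups, at 0.681, 1.04 and 1.03 CPM in mutant cells and 0.816, 0.919 and 1.35 CPM in WT cells.
Of 7 H2A members tested, Hist3h2a alone was called, while 68.8% of all genes tested were called in either direction. It had 26.8, 28.1 and 30.3 CPM in mutant cells, against 11.2, 10.4 and 10.4 CPM in WT cells, a log2 fold change of 1.41 ± 0.07 (SE; edgeR quasi-likelihood test, adjusted p = 4.92e-17). The Hist2h2aa1 and Hist2h2aa2 pair summed to 20.9, 21.9 and 31.2 CPM in mutant cells and 15.4, 15.4 and 16.7 CPM in WT cells. Neither gene was called (edgeR quasi-likelihood test, adjusted p = 0.144 and 0.0644), although every mutant library lay above every WT library in the sum. Hist2h2aa2 was called higher with only the 6 libraries compared (edgeR quasi-likelihood test, adjusted p = 1.04e-07), and limma's test on log2(TPM + 1) called both genes higher (adjusted p = 0.035 for Hist2h2aa1 and 0.0352 for Hist2h2aa2). Hist1h2al had 2.38, 3.54 and 9.06 CPM against 1.11, 0.749 and 2.34 CPM and was not called in the edgeR quasi-likelihood test (adjusted p = 0.0768).

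Of 13 H2B genes tested 7 were called higher (53.8%), against 36.8% of the 38 members and 35.1% of all genes tested. Hist1h2bq and Hist1h2br, both among the 7, share nearly all of their sequence, so their calls are not separate. Hist1h2bg (chr13:23571396-23572013, plus strand) had 6.52, 8.67 and 9.85 CPM in mutant cells, against 1.21, 1.33 and 1.31 CPM in WT cells. It was the largest called difference among members with at least 1 CPM, at a log2 fold change of 2.73 ± 0.17, or 6.61-fold (SE; edgeR quasi-likelihood test, adjusted p = 3.97e-13). Per length it stood at 33.6 TPM in mutant cells and 4.53 TPM in WT cells. Of its 50-base stretches 50.26% are found in no other gene.
Hist1h2br had 13.2, 8.04 and 5.23 CPM in mutant cells and 1.37, 2.72 and 0.675 CPM in WT cells, and Hist1h2bq had 7.83, 11.6 and 15.9 CPM and 2.74, 1.84 and 3.38 CPM. In these near-identical genes the mutant library high in one was low in the other, but their sum was even, at 21, 19.6 and 21.1 CPM in mutant cells and 4.11, 4.56 and 4.05 CPM in WT cells. The log2 fold changes were 2.38 ± 0.48 for Hist1h2br and 2.20 ± 0.31 for Hist1h2bq (SE; edgeR quasi-likelihood test, adjusted p = 1.87e-03 and 1.68e-04). Hist1h2be had 7.20, 7.17 and 6.72 CPM against 3.10, 3.71 and 4.46 CPM, and Hist2h2be had 3.21, 3.29 and 3.13 CPM against 2.06, 2.18 and 1.53 CPM. Hist1h2bc had 46.4, 46.6 and 52.3 CPM in mutant cells and 41.1, 39.4 and 41.2 CPM in WT cells, a log2 fold change of 0.26 ± 0.09 (SE; edgeR quasi-likelihood test, adjusted p = 0.0254). That call was lost without mutant replicate 3, WT estradiol replicate 1 or WT estradiol replicate 2 (adjusted p 0.0544 to 0.0829). The lone member called lower was Hist1h2bb, with 0.0973, 0.204 and 0.152 CPM in mutant cells and 0.326, 0.477 and 0.585 CPM in WT cells. Hist1h2bj had 0.535, 0.409 and 0.365 CPM in mutant cells and 0.587, 0.885 and 0 CPM in WT cells.

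Of the H3 genes 1 of 5 was called and of the H4 genes 2 of 8, against 68.8% of all genes tested. Hist1h3d had 3.16, 2.70 and 3.16 CPM in mutant cells and 1.17, 1.12 and 1.53 CPM in WT cells, a log2 fold change of 1.24 ± 0.18 (SE). Hist2h3c1 overlapped between the groups, at 2.33, 2.43 and 2.71 CPM in mutant cells and 2.41, 2.15 and 2.07 CPM in WT cells. Hist1h4i had 16, 15.3 and 17.2 CPM against 8.84, 8.68 and 11.1 CPM, a log2 fold change of 0.77 ± 0.16 (SE). Hist1h4d had 0.778, 1.34 and 0.852 CPM against 0.163, 0.306 and 0.090 CPM, a log2 fold change of 2.38 ± 0.38 (SE). Hist4h4 overlapped, at 4.62, 5.13 and 5.02 CPM in mutant cells and 4.83, 6.85 and 6.21 CPM in WT cells, and was called lower only without WT estradiol replicate 1 (log2 fold change -0.39; edgeR quasi-likelihood test, adjusted p = 0.0073), with DESeq2's size factors (adjusted p = 0.0455) and with only the 6 libraries compared (adjusted p = 0.0496). Hist2h4 overlapped as well, at 0.827, 1.11 and 0.973 CPM and 1.24, 1.09 and 0.810 CPM.
The summed levels without a test were 189.4 ± 19.4 CPM in mutant cells and 111.8 ± 3.79 CPM in WT cells for all members other than Hist1h1c (SD, n = 3 each). H2B summed to 93.9 ± 5.89 CPM in mutant cells and 58.7 ± 1.13 CPM in WT cells, H4 to 24.6 ± 1.05 and 17.6 ± 1.41 CPM, and H3 to 6.12 ± 0.46 and 4.24 ± 0.31 CPM.

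In this comparison the companion lists were divided, and of all genes tested 35.1% were called higher and 33.6% lower. Of 22 S phase genes 10 were higher and 9 lower in mutant cells (12 and 4 on the log2(TPM + 1) scale, where Rrm1 turned direction). Cdc6, a replication origin factor, had 11.2 ± 0.77 CPM in mutant cells and 3.01 ± 0.17 CPM in WT cells (SD, n = 3 each), while Mcm6, a subunit of the replicative helicase, had 8.76 ± 1.23 and 21.5 ± 0.39 CPM. Of 14 genes for the 3′ end and decay 3 were higher and 3 lower (7 and 1 on the TPM scale), and Slbp had 84.0 ± 2.17 and 78.9 ± 1.25 CPM. Of 10 transcription genes 2 were higher and 7 lower (3 and 2 on the TPM scale, where Npat and Pou2f1 turned direction), with Ccne1 at 10.6 ± 0.53 and 6.09 ± 0.46 CPM and Ccne2 at 7.13 ± 0.19 and 21.6 ± 1.43 CPM. Of 20 chaperones 10 were higher and 6 lower (13 and 3 on the TPM scale), with Ubn1 at 419.3 ± 4.38 CPM in mutant cells and 227.2 ± 4.03 CPM in WT cells. Of 8 histone genes outside the clusters 4 were higher and 3 lower (5 and 2 on the TPM scale). H2afj rose by 0.75 ± 0.18 on the log2 scale, and H3f3a fell by 0.31 ± 0.03 (SE).

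The comparison of mutant cells with and without 5-ALA, all with estradiol, asks what supplying the heme precursor changes. The members that differed were mostly lower with 5-ALA, with the H2B genes Hist1h2br, Hist1h2bg and Hist1h2bq in front and Hist3h2a, Hist1h1b, Hist1h1d, Hist1h2bf, Hist1h3d and Hist1h4d behind them. Of the 38 members 1 was called higher and 9 lower, and 28 were not called. Over all genes tested 21.6% were called higher and 21% lower (42.6% in either direction), against 2.63% and 23.7% of the members, so that the share lower was near the background. Of all calls 50.7% were higher here, and 12.3% on the log2(TPM + 1) scale, where the median of all genes lay at -0.15. On that scale 15 members were called lower, the further 6 being Hist1h1c, Hist1h2bc, Hist1h2be, Hist1h4i, Hist2h2aa1 and Hist2h3c1. The erythroid marker sum was 68930 to 74240 CPM with 5-ALA and 25450 to 26950 CPM without, and its part in these differences was not tested. The groups did not overlap for 15 of the 38 members, and for 49.1% of all genes tested. The median log2 fold change was -0.16 over the members and 0.01 over all genes tested. The comparisons share libraries: those of mutant cells without 5-ALA stand in both mutant comparisons, and those of WT cells with estradiol in the others.

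Hist1h1c had 766, 818 and 825 CPM in mutant cells with 5-ALA, against 775, 796 and 862 CPM without it. The groups overlapped, and the log2 fold change was -0.01 ± 0.03 (SE; edgeR quasi-likelihood test, adjusted p = 0.787). On the log2(TPM + 1) scale the log2 fold change of Hist1h1c was -0.22 and passed limma's test at an adjusted p of 0.00134. Hist1h1b had 0.505, 0.567 and 0.502 CPM with 5-ALA and 0.875, 1.04 and 1.55 CPM without, a fall of 1.16 ± 0.28 on the log2 scale (SE). Hist1h1d had 1.19, 1.42 and 1.00 CPM against 1.65, 1.52 and 2.28 CPM (edgeR quasi-likelihood test, adjusted p = 0.0268). The Hist1h1d call was lost without mutant replicate 3, 5-ALA replicate 1 or 5-ALA replicate 3 (adjusted p 0.0545 to 0.21).
Hist3h2a had 20.5, 22 and 20.2 CPM with 5-ALA, against 26.8, 28.1 and 30.3 CPM without it. It was the one H2A gene called, with a log2 fold change of -0.45 ± 0.06 (SE; edgeR quasi-likelihood test, adjusted p = 1.42e-06). Its WT value of 10.4 to 11.2 CPM lay below both mutant groups. The Hist2h2aa1 and Hist2h2aa2 pair summed to 13.8, 25.3 and 26.6 CPM with 5-ALA and 20.9, 21.9 and 31.2 CPM without, with overlap. Without 5-ALA replicate 1, Hist2h2aa2 was called higher (log2 fold change 0.39; edgeR quasi-likelihood test, adjusted p = 0.000971).

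Of 13 H2B genes 4 were lower and 1 higher with 5-ALA, while 42.6% of all genes tested were called in either direction. Hist1h2bg had 2.96, 3.79 and 2.82 CPM with 5-ALA, against 6.52, 8.67 and 9.85 CPM without it, a log2 fold change of -1.41 ± 0.14 (SE; edgeR quasi-likelihood test, adjusted p = 1.6e-08). All 3 libraries with 5-ALA were below all 3 without it and above the WT libraries at 1.21 to 1.33 CPM. Hist1h2br had 2.74, 1.28 and 2.17 CPM against 13.2, 8.04 and 5.23 CPM, a log2 fold change of -2.06 ± 0.46 (SE; edgeR quasi-likelihood test, adjusted p = 6.3e-03). Hist1h2bq had 4.47, 6.27 and 4.21 CPM against 7.83, 11.6 and 15.9 CPM, a log2 fold change of -1.27 ± 0.27 (SE; edgeR quasi-likelihood test, adjusted p = 5.1e-03). The pair's sum was 7.21, 7.55 and 6.38 CPM with 5-ALA and 21, 19.6 and 21.1 CPM without. Hist1h2bf fell by 1.60 ± 0.37 on the log2 scale (SE). Hist1h2bb, the lone member higher with 5-ALA, had 0.288, 0.496 and 0.345 CPM against 0.0973, 0.204 and 0.152 CPM (edgeR quasi-likelihood test, adjusted p = 0.0296). The Hist1h2bb call was lost without mutant replicate 1, mutant replicate 3 or 5-ALA replicate 2 (adjusted p 0.0746 to 0.144). Hist1h2bc overlapped, at 36.7, 46.7 and 46.5 CPM with 5-ALA and 46.4, 46.6 and 52.3 CPM without.
Hist1h3d had 2.13, 2.20 and 1.98 CPM with 5-ALA and 3.16, 2.70 and 3.16 CPM without (edgeR quasi-likelihood test, adjusted p = 0.0124), a call lost without mutant replicate 3 (adjusted p = 0.0547). Hist1h4d had 0.288, 0.390 and 0.628 CPM with 5-ALA and 0.778, 1.34 and 0.852 CPM without (edgeR quasi-likelihood test, adjusted p = 0.00279), a call lost without mutant replicate 2 (adjusted p = 0.0577). Hist1h4i overlapped between the groups, at 10.2, 14.0 and 15.8 CPM with 5-ALA and 16, 15.3 and 17.2 CPM without, and was not called. It was called lower without 5-ALA replicate 3 (edgeR quasi-likelihood test, adjusted p = 0.029), with no filter on low counts (adjusted p = 0.00611) and in limma's test on log2(TPM + 1) and log2(TPM + 0.1) (adjusted p = 0.0187 and 0.0268). Hist2h4 stood higher in every 5-ALA library, at 1.37, 1.49 and 1.26 CPM against 0.827, 1.11 and 0.973 CPM, but was not called (edgeR quasi-likelihood test, adjusted p = 0.0998).

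**Figure D5:**
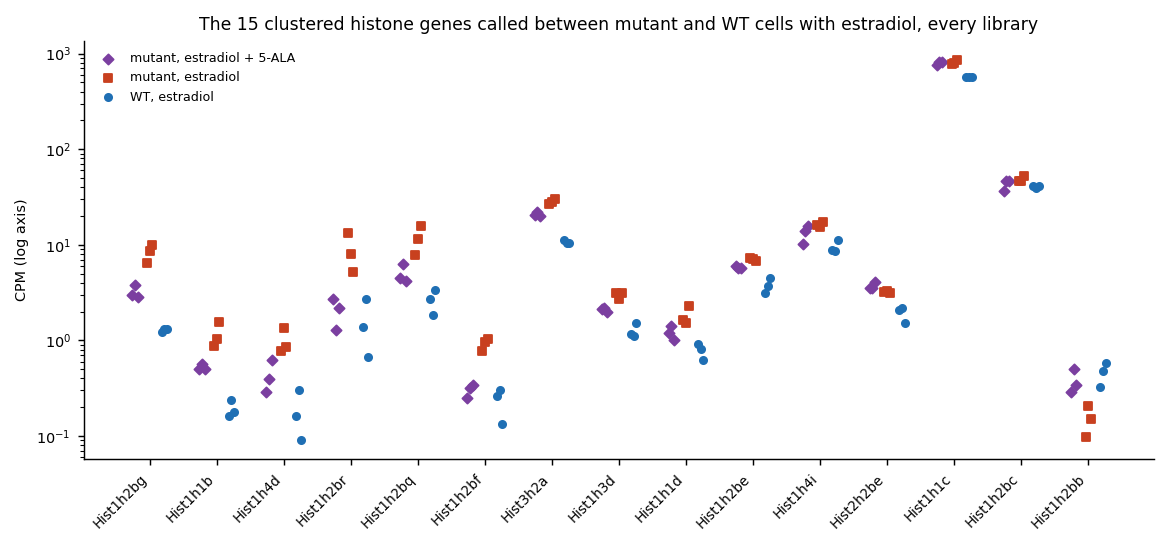
CPM (log axis) in every estradiol library of the 15 members called between mutant and WT cells with estradiol, with mutant cells given 5-ALA at the left of each gene, mutant cells in the middle and WT cells at the right. For Hist1h2bg the 3 groups stand apart at 2.82 to 3.79, 6.52 to 9.85 and 1.21 to 1.33 CPM, while for Hist1h1c both mutant groups lie at 766 to 862 CPM.

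Slbp had 69.7 ± 1.26 CPM with 5-ALA and 84.0 ± 2.17 CPM without it (SD, n = 3 each), a fall of 0.27 ± 0.03 on the log2 scale (SE). Of 14 genes for the 3′ end and decay 7 were higher and 4 lower with 5-ALA, but none higher and 10 lower on the log2(TPM + 1) scale, where Cpsf2, Cpsf3, Exosc10, Lsm10 and Upf1 turned direction. Of 22 S phase genes 2 were higher and 10 lower (0 and 15 on the TPM scale, where Mcm4 and Mcm7 turned direction), with Rrm2 at 5.67 ± 0.44 CPM with 5-ALA and 10.1 ± 1.03 CPM without. Of 10 transcription genes 1 was higher and 4 lower (0 and 7 on the TPM scale, where Yy1 turned direction), with Ccna2 at 9.38 ± 0.38 and 15.8 ± 1.05 CPM. Of 20 chaperones 4 were higher and 6 lower (0 and 15 on the TPM scale, where Rbbp7 turned direction). Of 8 histone genes outside the clusters none was higher and 2 were lower, H2afy and H3f3b (0 and 7 on the TPM scale).

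Mutant cells with 5-ALA were last set against WT cells with estradiol, which asks how much of the difference from WT is there when the precursor is supplied. Of the 38 members 12 were called higher and none lower (at an unadjusted p below 0.05 also 12 and 0), and 26 were not called. Over all genes tested 33.3% were called higher and 29.0% lower (62.3% in either direction), against 31.6% and 0% of the members. The groups did not overlap for 11 of the 38 members, and for 65.9% of all genes tested. The median log2 fold change was 0.50 over the members and 0.01 over all genes tested. Without a filter on low counts the edgeR quasi-likelihood test called 2 members lower, and the DESeq2 Wald test called none.
Hist1h2bg was 2.49-fold higher than in WT cells, at a log2 fold change of 1.31 ± 0.20, Hist3h2a 1.95-fold, at 0.97 ± 0.07, and Hist1h1c 1.41-fold, at 0.50 ± 0.03 (SE; edgeR quasi-likelihood test, adjusted p = 2.38e-06, 9.55e-13 and 3.52e-10). Hist2h2be had 3.57, 3.51 and 4.11 CPM in mutant cells with 5-ALA, against 2.06, 2.18 and 1.53 CPM in WT cells, with no overlap and a log2 fold change of 0.94 ± 0.15 (SE; edgeR quasi-likelihood test, adjusted p = 2.65e-06). Hist1h1b, Hist1h2be and Hist1h3d were also higher, by log2 fold changes of 1.41 ± 0.39, 0.65 ± 0.14 and 0.73 ± 0.19 (SE). The remaining 5 calls each failed when a single library was left out, and under other alternatives. Hist1h1d (log2 fold change 0.58) was lost without any of 4 libraries, namely 5-ALA replicate 1 or 2 and WT estradiol replicate 2 or 3 (adjusted p 0.0666 to 0.168), in the DESeq2 Wald test (0.129), with DESeq2's size factors (0.0539) and with no filter on low counts (0.0539). Hist1h2bq (0.93) was lost without 5-ALA replicate 1, 2 or 3 or WT estradiol replicate 1 or 2 (adjusted p 0.0514 to 0.137), and with no filter (0.0647). Hist1h4d (1.17) was lost without 5-ALA replicate 3 or WT estradiol replicate 1 or 3 (adjusted p 0.0828 to 0.184), and in the DESeq2 Wald test (0.0549). Hist1h4i (0.50) was lost without 5-ALA replicate 2 or 3 or WT estradiol replicate 1 or 2 (adjusted p 0.0546 to 0.0782), and with only the 6 libraries compared (0.102). Hist2h2aa2 (0.69) was lost without 5-ALA replicate 2 or 3 or any 1 of the WT estradiol replicates 1, 2 and 3 (adjusted p 0.0507 to 0.0821), with only the 6 libraries compared (0.0968), and in limma's test on log2(TPM + 1) (0.0661) and log2(TPM + 0.1) (0.204).

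Markers of other cells were read in the same libraries. The mast cell and basophil list, of which Mcpt8, Fcer1a and Tpsb2 of 5 genes were at 0 throughout, summed to 0.0314 to 0.108 CPM in mutant cells with 5-ALA, 0.0912 to 0.438 CPM in mutant cells, 1.23 to 1.43 CPM in WT cells with estradiol and 134.1 to 150.1 CPM in untreated WT cells. Nearly all of that sum was Cpa3, at 139.4 CPM in untreated WT cells. The 7 megakaryocyte genes, with Gp1bb at 0, summed to 22.5 to 23.3 CPM in mutant cells with 5-ALA, 13.9 to 14.8 CPM in mutant cells, 31.1 to 32.7 CPM in WT cells with estradiol and 90.0 to 94.3 CPM in untreated WT cells. The genes of the list differed in direction: Itga2b averaged 21.2 CPM in WT cells with estradiol and 60.8 CPM in untreated WT cells, while Gp9 averaged 3.33 and 0.728 CPM and Vwf 4.73 and 2.44 CPM. The 4 fibroblast genes summed to 11.3 to 11.6 CPM in untreated WT cells and to at most 0.721 CPM elsewhere, and nearly all of it was Pdgfrb, at 11.5 CPM in untreated WT cells. The collagen genes Col1a1, Col1a2 and Col3a1 averaged at most 0.0844 CPM in any group. The 6 granulocyte and macrophage genes stayed at 2.16 to 3.64 CPM in all groups, and the 4 lymphocyte genes at 0.0513 to 0.408 CPM. The megakaryocyte sums did not overlap between the groups in any of the 4 comparisons, nor did the mast cell sums except between mutant cells with and without 5-ALA, and their part in the members' differences was not tested.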

How the data were processed

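RNA was sequenced in 12 libraries, 3 in each of 4 groups. The submitters' processing notes name CASAVA 1.8.2, Bowtie 1.1.1, RSEM 1.2.20 and mm10. Sources used here do not give the read length, strand use or annotation release. The deposited tables hold RSEM expected counts, in which reads shared by genes are divided by likelihood, and the authors' TPM values, which are scaled by effective length, 49 bases below the length. The tables also hold FPKM as deposited by the authors, from RSEM per the file headers, which was not used. Symbols, positions and transcripts came from GENCODE M21, which matched 24746 of 25097 identifiers, and promoters from RefSeq.

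Expected counts were rounded, filtered with filterByExpr by group and scaled by TMM. The robust quasi-likelihood model of edgeR 4.0.16 (R 4.3.3) took all 12 libraries and 4 group means. An SE beside a log2 fold change is approximate, derived from its size and the F statistic. The common coefficient of variation was 0.0334. Counting intervals are exact Clopper-Pearson 95% intervals and, like the floor of 3 counts, cover counting error only. Replicates differed by more than sampling noise (chi-square per degree of freedom 1.75 to 14.5), and no 2 tables were identical. Tested on simulated data, the fit recovered most but not all changed genes, and in some comparisons the share of false calls was above the threshold. The members and lists were chosen with earlier results of these data known.

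Named with values per library were the 4 members of each type with the highest mean count. Named with fold and test were, in each comparison, the 3 members with the largest rise and the 3 with the largest fall among those called, with a mean of at least 1 CPM and no overlap. From each list up to 4 called genes with the largest change could be named. All other genes named, among them Hist1h1a, Hist1h2bb, Hist1h2bf, Hist1h3g, Hist1h3h, Hist1h4b, Hist1h4n, Slbp, H3f3a and H2afz, and further tests of the abundant members, were chosen after their values were seen. The 50-base stretches of each member were searched for in the listed transcripts of all other genes. Alternatives were DESeq2 1.42.0, its size factors, other filters, limma 3.58.1 on log2(TPM + 1) and log2(TPM + 0.1), only the 6 libraries compared, a replicate block, and leaving out each library.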

Additional observations from a re-analysis of the deposited data

How the results depend on the processing

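Every called member kept its direction under each alternative that gave it a value. With no filter on low counts, 20 members were lower with estradiol in WT cells in place of 11, 15 were lower with 5-ALA in place of 9, and 2 were lower in mutant cells with 5-ALA than in WT cells in place of 0. With at least 1 CPM in at least 3 libraries, 3 members were lower with estradiol, 0 were lower in mutant than in WT cells in place of 1, and 0 were higher with 5-ALA in place of 1. The lower mutant count was 2 with DESeq2's size factors and 3 with only the 6 libraries compared. The DESeq2 Wald test called 0 members higher with 5-ALA. On the log2(TPM + 1) scale 15 members were lower with 5-ALA. The genes called lower in mutant than in WT cells, 4076 of all tested, became 2326 on log2(TPM + 1) and 2309 on log2(TPM + 0.1). With 5-ALA, 2620 genes higher became 806 and 789, and 2543 lower became 5719 and 5663. The median of all genes moved on the log2(TPM + 1) scale to -0.23 for estradiol in WT cells, 0.12 for mutant against WT cells and -0.15 for 5-ALA, so that the TPM splits are relative to those shifts.

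With 1 library left out, the members called higher and lower ranged over 15 to 16 and 10 to 11 for estradiol in WT cells, 13 to 15 and 1 to 2 for mutant against WT cells, 0 to 2 and 7 to 10 for 5-ALA, and 8 to 11 and 0 to 1 for mutant cells with 5-ALA against WT cells. The DESeq2 Wald test lost the 5-ALA calls of Hist1h1d and Hist1h3d. Of 1112 alternative values of named fold changes, 1031 kept their side of the threshold, 50 no longer passed, 31 newly passed and none reversed. Counts below 100 over all libraries limit most H3 genes.

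Of 20 summed levels of a type, 11 moved by more than the spread between replicates with TPM in place of CPM.

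The replicate numbers were not taken as pairs because the labels tie them to nothing shared and not every correlation of same-numbered libraries was over 0.1. The correlations ran between -0.258 and 0.242, and all 3 were positive between mutant and WT cells with estradiol (0.059 to 0.242) and between mutant cells with and without 5-ALA (0.084 to 0.228). As a hint from the data, 8 of 12 libraries correlated best with their own number. With the replicate block, 17 members were higher and 11 lower with estradiol in WT cells, 16 and 1 in mutant against WT cells, among them Hist1h2al (adjusted p = 0.0221), 1 and 9 with 5-ALA, and 11 and 0 in mutant cells with 5-ALA against WT cells, where Hist1h1d was lost (adjusted p = 0.0568), all in the edgeR quasi-likelihood test.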
